A study of Mus musculus with 35 samples.

Results

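Somatostatin interneurons of the mouse hippocampus are described here in single-nucleus RNA sequencing of 4 genotypes, and they numbered 790 nuclei. They were chosen by a rule on unique molecular identifier (UMI) counts, where 1 UMI stands for 1 captured RNA molecule. A nucleus had to show 1000 or more detected genes, 4 or more UMIs of Gad1 and Gad2 together, 3 or more UMIs of Sst, 0 of Vip, at most 2 of Slc17a7 and at most 2 of Mog and Mag together. Of 144991 deposited barcodes, 122747 had 1000 or more genes, and 5899 of these met the Gad, Slc17a7 and Mog plus Mag conditions and are called inhibitory nuclei. Besides the 790 Sst nuclei these held 4350 nuclei with 0 Sst UMIs, called other inhibitory nuclei below, 748 with 1 or 2 Sst UMIs, and 11 with 3 or more Sst UMIs and a Vip UMI. The levels of Sst, Gad1, Gad2, Vip, Slc17a7, Mog and Mag within the chosen nuclei follow from the rule and are descriptions only. Just inside the Sst threshold lay 193 nuclei with 3 Sst UMIs and 127 with 4, and just outside it lay 261 with 2 Sst UMIs and 0 Vip UMIs. The median Sst nucleus held 5 Sst UMIs, the highest held 38, and 259 nuclei lay near the lower bound of Gad1 plus Gad2 with 4 or 5 UMIs.

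Interneurons that release GABA together with the peptide somatostatin inhibit the dendrites of principal neurons, and so control which excitatory inputs reach the cell body. In the hippocampus they include the oriens lacunosum-moleculare cells, whose axons reach the outer dendrites of pyramidal cells, and hilar cells of the dentate gyrus that project to the outer dendrites of granule cells and often contain neuropeptide Y. They come from the medial ganglionic eminence, where the transcription factors Lhx6, Sox6 and Satb1 direct their development. Somatostatin expression follows neuronal activity through cyclic AMP and the factor CREB, and somatostatin interneurons are among the cells studied for loss or silencing in models of dementia.

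The Sst gene lies on chromosome 16 from 23889573 to 23890958 of GRCm38, on the minus strand. The bases before its RefSeq start are shown because the gene that chose these nuclei carries there an exact copy of the cyclic AMP response element, the letters TGACGTCA, which read the same on both strands. The RefSeq start of Sst lies inside that interval, which is GENCODE's, so the bases shown fall partly within it. In the RefSeq promoter table of GRCm38.p6 the 250 bases before the RefSeq start of Sst, chr16:23890845-23891094 on the minus strand, held the motif 1 time, at bases 48 to 41 before the start, in capitals below. Of all 32851 promoters of that length in the table, 508 (1.55%) held it.
Sst promoter: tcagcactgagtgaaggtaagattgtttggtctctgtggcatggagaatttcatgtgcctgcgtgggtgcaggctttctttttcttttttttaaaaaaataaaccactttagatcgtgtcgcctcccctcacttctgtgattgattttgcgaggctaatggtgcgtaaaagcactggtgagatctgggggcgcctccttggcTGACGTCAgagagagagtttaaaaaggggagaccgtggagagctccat

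Nuclei came from frozen hippocampus of C57BL/6 mice aged 9 months and were profiled with the 10x Genomics 3′ v3 chemistry, which counts RNA from its polyadenylated end. The 14 libraries fell into 3 WT, 3 PS19, 4 CLEAR mutant and 4 CLEAR mutant crossed with PS19 (CLEAR_PS19) libraries, and every group had 1 female, the rest being males. PS19 mice express a mutant human tau from a transgene that the Prnp (prion protein) promoter drives. In CLEAR mice, as far as the design is known, the TFEB binding site (a CLEAR element) of Atp6v1h is mutated, and this gene encodes a subunit of the V-ATPase, the pump that acidifies lysosomes. Bulk RNA-seq of whole hippocampus of C57BL/6 mice covered WT and PS19 at 4 months (6 and 6 libraries) and at 9 months (5 and 4 libraries). The labels do not say whether libraries came from separate litters, so p-values measure only the spread between these samples.

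Libraries held 6471 to 12686 nuclei with 1000 or more genes and 301 to 564 inhibitory nuclei. The summed Sst nuclei of a library gave 108889 UMIs (CLEAR_PS19 replicate 4, 10 nuclei) to 1661987 UMIs (CLEAR_PS19 replicate 1, 125 nuclei), so that replicate 4 of CLEAR_PS19 was measured least precisely. The expression profiles of excitatory nuclei sorted the libraries into 3 sets, for which the labels give no batch. The first took in replicates 1 and 2 of WT and of PS19 with replicate 3 of both CLEAR groups. The second held the 4 libraries labelled female. The third held replicates 1 and 2 of CLEAR and of CLEAR_PS19, so that part of the CLEAR contrast cannot be told apart from that set. Any 2 libraries shared 10 to 70 barcodes (median 27 over 91 pairs). Doublet calls marked 52 of the 790 nuclei, which were kept.

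Few UMIs of other cell types stood in the Sst nuclei. In all 790 nuclei together the microglial gene Tmem119 had 5 UMIs, the astrocyte gene Aqp4 had 12, the endothelial gene Cldn5 had 1 and the fibroblast gene Col1a1 had 1, out of 11499453 UMIs. The summed level of 12 microglial markers, in CPM (UMIs scaled to the same total in every library), was 74.2 to 220 in WT and 133 to 210 in PS19, while CLEAR ranged over 99.5 to 199 and CLEAR_PS19 over 106 to 192. For 10 astrocyte markers it was 45 to 342 in WT and 133 to 455 in PS19, while CLEAR ranged over 186 to 413 and CLEAR_PS19 over 66.5 to 193. For 10 oligodendrocyte markers it was 61.6 to 149 in WT and 87.1 to 145 in PS19, while CLEAR ranged over 74 to 96 and CLEAR_PS19 over 73.5 to 156. The ranges of the 4 groups overlapped for these 3 lists, and also for markers of oligodendrocyte precursors, vessels, Cajal-Retzius cells and other interneurons. Groups lay apart for 2 lists, those of dentate granule and of pyramidal neurons. The granule list averaged 938 to 1206 CPM per genotype in Sst nuclei, above the 501 to 834 of excitatory nuclei. It is therefore no measure of excitatory RNA in Sst nuclei. The sum of 10 dentate granule markers, Trpc6 among them, was 882 to 1074 CPM in CLEAR_PS19, below the 1171 to 1193 of PS19 and the 1093 to 1351 of WT, while CLEAR had 940 to 1241. That of 11 pyramidal markers was 736 to 878 in PS19, above the 590 to 719 of CLEAR_PS19 and the 654 to 734 of CLEAR, while WT had 633 to 986.

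The genes that the alleles mark were read first, as a check on the labels. Prnp in Sst nuclei was 47.1, 27.9 and 38.9 CPM in WT, against 62.5, 71 and 59.6 in PS19, while CLEAR had 45.2, 46.9, 46.7 and 27.3 and CLEAR_PS19 had 107, 112, 72.5 and 68.1. Each of the 7 transgenic libraries was higher than any of the 7 others. Atp6v1h was 131, 123 and 98.5 CPM in WT, against 103, 133 and 107 in PS19, while CLEAR had 95, 86.5, 79.2 and 77 and CLEAR_PS19 had 86.1, 85.8, 102 and 128. CLEAR lay below WT without overlap, and CLEAR_PS19 overlapped with PS19 through its replicate 4. In the more deeply sampled other inhibitory nuclei Atp6v1h was 103 to 122 CPM in the 6 libraries without the mutation and 61.1 to 81.6 in the 8 with it, without overlap.

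**Figure D1:**
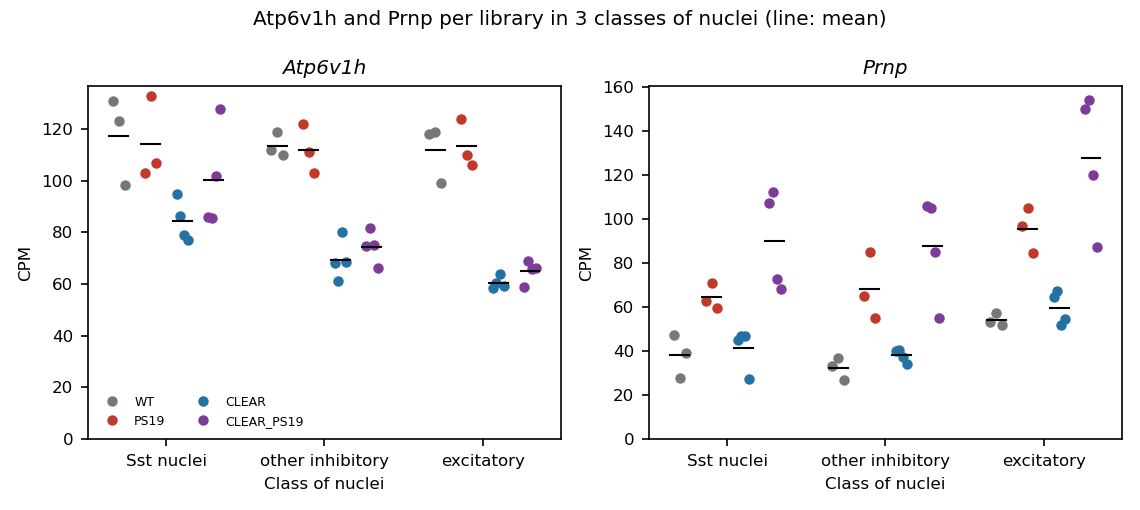
Level of Atp6v1h (left) and Prnp (right) in CPM, per library (points) and mean per genotype (line), in Sst, other inhibitory and excitatory nuclei. Prnp is higher in both genotypes with the transgene in all 3 classes, and Atp6v1h is lower with the CLEAR mutation, with the smallest gap in Sst nuclei, where the CLEAR_PS19 library of 10 nuclei lies at 128.

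Beyond the genes of the rule, Sst nuclei differed from other inhibitory nuclei in genes such as Lypd6b, Elfn1 and Grin3a, which were higher, and Lamp5, which was lower. Because nuclei were divided by Sst, this contrast is the one that the rule used, so the values are given without a test. Of 11346 genes fitted, 3014 (26.6%) passed the threshold of 0.05, 1560 higher and 1454 lower in Sst nuclei, and nothing is read from that count. The genes with the strongest fit among those higher included Lypd6b, Trpc6, Grin3a, Elfn1, Utrn, Gm32014, Cacna2d3, Trhde and Grik3. Lypd6b, a membrane-anchored protein related to modulators of nicotinic receptors, averaged 201 CPM in Sst nuclei (132 to 251 over the libraries) against 27.4 (18.4 to 34.7) in the others. Elfn1, an adhesion protein that recruits presynaptic glutamate receptors to excitatory synapses on these cells, averaged 157 (118 to 241) against 21.8 (11.2 to 28.1). The lowest Sst value lay above the highest other value for both genes, which were picked by this fit.

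Both NMDA and kainate receptor subunits were among them. Grin3a, an unusual NMDA receptor subunit, averaged 643 CPM (494 to 837) against 144 (101 to 186), and the kainate receptor subunit Grik3 averaged 234 against 70.6. The cation channel gene Trpc6, which the marker lists also hold for dentate granule neurons, averaged 504 against 91.7. The remaining 4 averaged 603 against 164 for Utrn, which encodes utrophin, 145 against 33 for the unnamed Gm32014, 1990 against 515 for the calcium channel subunit gene Cacna2d3 and 698 against 148 for Trhde, the enzyme that degrades thyrotropin-releasing hormone.

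Among the 10 genes with the strongest fit on the lower side was a marker of another interneuron class. Lamp5, which marks neurogliaform cells, averaged 1.56 CPM (0 to 3.48) against 61.2 (46.5 to 84.5). Fgf13, a modulator of sodium channels, averaged 223 against 1517, and the calcium channel subunit gene Cacna2d1 averaged 42.3 against 771. The transcription factor genes Nfib and Trps1 averaged 40.3 against 483 and 59.4 against 372. The phosphodiesterase gene Pde11a averaged 2.87 against 243, the potassium channel gene Kcnh1 24.3 against 139, the scaffold gene Mpdz 40.1 against 193, the matrix gene Frem1 0.83 against 118 and 4930447N08Rik 9.63 against 132. All 19 genes named lay without overlap between the classes. They were picked by the strength of this fit, so that this is no separate result.

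**Figure D2:**
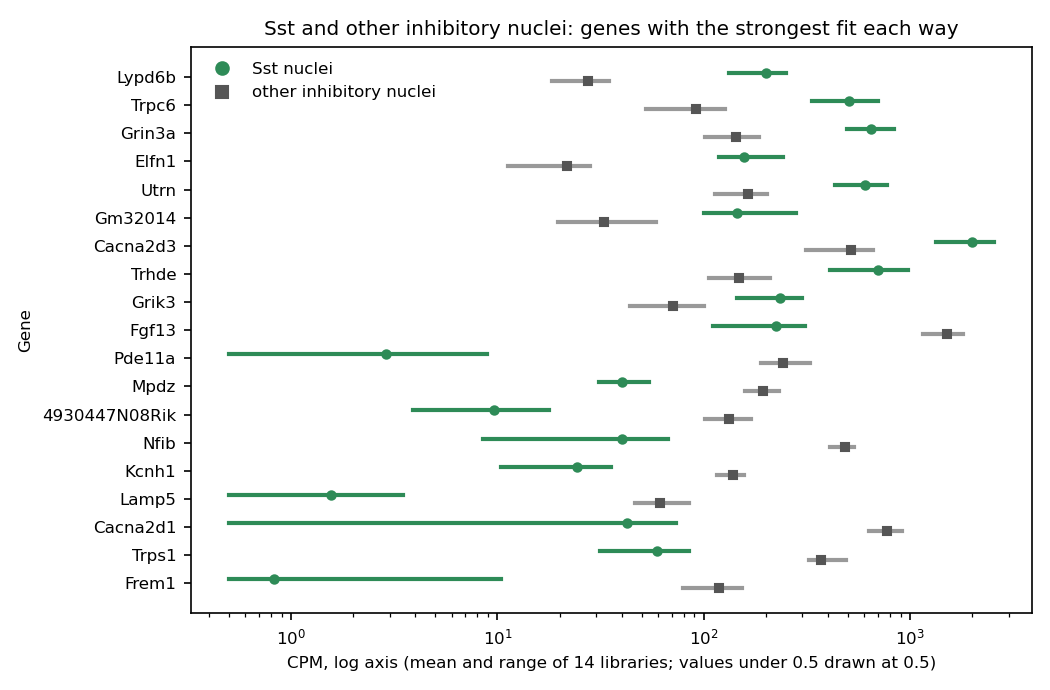
Level in CPM (log axis) of 19 genes with the strongest fit between Sst nuclei (circles) and other inhibitory nuclei (squares), as the mean of 14 libraries with the lowest and highest library. The genes were picked by that fit, so ranges of both classes that stay apart are no separate result. Lamp5, Frem1 and Pde11a are nearly absent from Sst nuclei.

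Developmental and peptide genes of the fixed lists were read as a check of the cell type. Satb1 averaged 305 CPM in Sst nuclei against 106, and Sox6 345 against 173, each higher in 14 of 14 libraries, while Lhx6 averaged 53.5 against 33.7 and Maf 344 against 250. The GABA transporter gene Slc32a1 was at a like level in both, 29.7 against 32.4. Among peptides and their partners, Npy averaged 75.2 against 28.1 (higher in 13 of 14 libraries), Cort 35.9 against 13.7 and Crhbp 94.5 against 20.3 (14 of 14). The parvalbumin gene Pvalb averaged 4.78 against 15.8 and the serotonin receptor gene Htr3a 0.545 against 11.2. The neuregulin receptor gene Erbb4, which many interneurons express, averaged 1573 against 8782.

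The Sst nuclei were not uniform. To compare detection across depths, 789 of them were thinned to 3000 UMIs each, and detection means at least 1 UMI. Reln was detected in 62.9% (76.2% before thinning), against 32.89% of other inhibitory and 1.94% of excitatory nuclei. Grin3a was detected in 71.5% (89.6% before thinning), but 27.65% of other inhibitory and 11.3% of excitatory nuclei also had a Grin3a UMI. Elfn1 reached 31.7% (69.9% before), Crhbp 19.8% (47), Npy 18.5% (40.3) and Lhx6 15.7% (46.7). In the same order the shares were 5.865%, 4.057%, 7.464% and 9.11% in other inhibitory nuclei. In excitatory nuclei each was under 1%, with 0.908%, 0.103%, 0.587% and 0.0484%.

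Other subtype genes were detected in fewer nuclei. Cort was detected in 9.63% of Sst nuclei after thinning, against 3.27% of other inhibitory and 0.218% of excitatory nuclei. Calb1 was detected in 11.3%, against 4.59% and 9.42%. Nos1 and Pvalb were below the share in other inhibitory nuclei, Nos1 with 3.93% against 12.5% (6.82% in excitatory nuclei) and Pvalb with 1.14% against 3.18% (0.145%). Chodl, a marker of long-range projecting Sst cells, was detected in 0.507% (1.01% before thinning), against 0.0232% of other inhibitory nuclei. Npy and Reln were detected together in 86 nuclei, Npy alone in 60, Reln alone in 410 and neither in 233. Npy and Pvalb shared 0 of 789 nuclei, and Nos1 and Chodl shared 3. Detection at this depth misses most molecules, so that 0 shared nuclei does not show that the genes exclude each other.

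Abundance varied more between libraries than between genotypes. Sst nuclei were 52, 46 and 26 in WT, which is 10.9% (95% Wilson interval 8.43 to 14.05), 14.1% (10.7 to 18.3) and 7.69% (5.3 to 11) of inhibitory nuclei. In PS19 they were 44, 62 and 19, or 8.26% (6.21 to 10.9), 12.1% (9.52 to 15.2) and 5.57% (3.6 to 8.54). In CLEAR they were 60, 82, 43 and 51, or 17% (13.5 to 21.3), 20.8% (17.1 to 25.1), 11.8% (8.89 to 15.5) and 12.2% (9.43 to 15.7). In CLEAR_PS19 they were 125, 96, 74 and 10, or 23.5% (20.1 to 27.2), 17% (14.2 to 20.3), 16.6% (13.5 to 20.4) and 3.32% (1.81 to 6.01). The 4 highest shares were those of the third library set, the lowest was a female of CLEAR_PS19, and all 4 groups overlapped. The intervals cover counting error only.

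**Figure D3:**
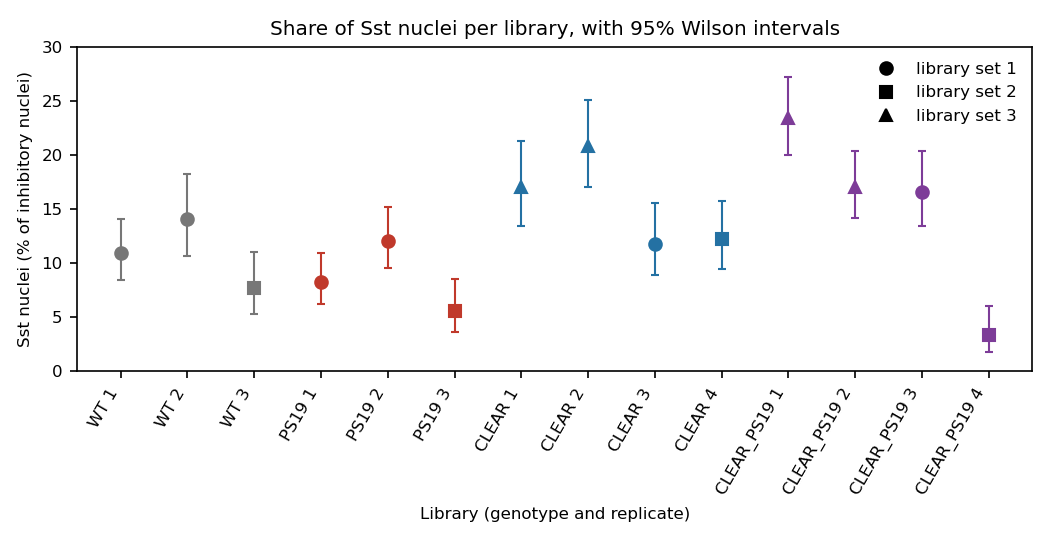
Sst nuclei as a percent of inhibitory nuclei in each library, with 95% Wilson intervals, coloured by genotype and with a marker shape for each library set. The 4 libraries of the third set sit between 17 and 23.5, above all WT and PS19 libraries, and the CLEAR_PS19 library of 10 nuclei sits lowest at 3.32.

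Neither allele gave a difference in abundance that passed the test. The share of inhibitory nuclei differed by -1.32 percentage points with the transgene, averaged over both CLEAR backgrounds (exact two-sided permutation p = 0.637, 0.85 after Benjamini-Hochberg adjustment over 4 share tests). With the CLEAR mutation it differed by 5.53 points (exact permutation p = 0.0816, adjusted 0.206). The sign of the transgene difference depended on the rule. It was 2.02 points with lower minimums of Gad and Sst UMIs and 0.191 with higher ones (exact permutation p = 0.43 and 0.906). Without called doublets it was -1.49. In the share of all nuclei it was 0.271 points with the lower minimums, against -0.0234 with the main rule. The CLEAR difference was 4.91 points with the lower minimums and 2.64 with the higher ones (exact permutation p = 0.08 and 0.11). Without the 4 libraries of the third set the CLEAR difference was 1.24 points (exact permutation p = 0.67), and within library sets it was 2.02 points (p = 0.333). Without CLEAR_PS19 replicate 4 it was 7.49 points, past the threshold, and the difference in the share of all nuclei was 0.35 points, also past it, against 0.254 with that library (exact permutation p = 0.103, adjusted 0.206). After thinning every nucleus to 3000 UMIs before the rule was applied, which left out 1110 to 3490 shallower nuclei per library, the CLEAR difference was 2.51 points (exact permutation p = 0.0457, adjusted 0.101). That value rests on few nuclei: 0 to 9 Sst nuclei per library remained, the share was 0% in 6 of 14 libraries, and it averaged 0.726% in WT, against 0% in PS19, while CLEAR had 2.24% and CLEAR_PS19 had 3.51%.

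Sst RNA was also found in other cells. At least 1 Sst UMI was seen in 2.21% of excitatory nuclei in CLEAR_PS19 replicate 4, the library with the lowest share of Sst nuclei, and in 8.53% in CLEAR_PS19 replicate 1, the one with the highest. In oligodendrocyte nuclei the same libraries gave 2.23% and 8.05%. The libraries between did not all follow that order: CLEAR replicate 1 had a Sst share of 17.05% and 3.97% of excitatory nuclei with a Sst UMI, and WT replicate 2 had 14.07% and 6.1%. Median depths were 13122 UMIs in Sst nuclei and 10794 to 19881.5 in excitatory nuclei of single libraries. Nuclei reaching 3 Sst UMIs were 8 of 16542 excitatory and 7 of 15728 oligodendrocyte nuclei. The part of this background in the shares was not tested.

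With the tau transgene few genes of Sst nuclei changed, among them Gm43049, Gm32754, Spon1 and Prnp. A gene is called when its adjusted p is under 0.05 (edgeR quasi-likelihood test on the summed counts of the Sst nuclei, Benjamini-Hochberg over 9893 genes). PS19 against WT gave 4 called genes (0.0404%), 3 higher and 1 lower, with 450 at an unadjusted p under 0.05 and 3 by DESeq2. With the replicate number as a block it gave 9, the 4 and also Dab1, Htr2c, Rspo2, Thsd7b and Trpm3. CLEAR_PS19 against CLEAR gave 5 (0.0505%), 3 higher and 2 lower, with 423 and 6. With the replicate number as a block that count was 8, the added genes being Npas4, Sav1 and Unc5c. The average of both contrasts gave 8 (0.0809%), 6 higher and 2 lower, with 429 and 9, and 9 with the replicate block, which added Trpm3 (-0.88, adjusted p = 0.0244 against 0.0586 without the block).

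The long noncoding RNA gene Gm43049 (chromosome 3, 140692038 to 140760704) was nearly absent without the transgene. It was 0 in all 3 WT libraries, 140, 105 and 119 CPM in PS19, while CLEAR had 2.32, 0, 0 and 0 and CLEAR_PS19 had 112, 130, 115 and 93.7. It was at least 78.1-fold higher in PS19 than in WT, from 222 counts against a floor of 3 counts over the group, and 205-fold higher in CLEAR_PS19 than in CLEAR (487 counts against 2, exact counting interval 56.4 to 1697). Its adjusted p was 1.09e-09, 1.5e-11 and 7.04e-14 in both contrasts and their average, and it was called in every alternative run. Gm43049 was also 106, 91.2 and 122 CPM in other inhibitory nuclei of PS19, so that it is not particular to Sst nuclei.

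Its neighbour Gm32754 (140904998 to 140917459) was 0 in all 7 libraries without the transgene, 5.95, 12.8 and 15.7 CPM in PS19 and 10.7, 13.5, 8.06 and 17 in CLEAR_PS19. It was at least 7.04-fold higher in PS19 (adjusted p = 0.145) and at least 12.6-fold higher in CLEAR_PS19 (adjusted p = 0.0116), with 0.000543 for the average. Its call in CLEAR_PS19 was lost without CLEAR replicate 2, CLEAR_PS19 replicate 1 or CLEAR_PS19 replicate 2 (adjusted p = 0.0584, 0.0556 and 0.0807), and that of the average without the 4 libraries of the third set (0.105).

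Prnp, whose promoter drives the transgene and whose levels are given above, rose by 0.96 ± 0.16 on the log2 scale (SE) on average (adjusted p = 0.00716). It rose by 1.13 ± 0.19 in CLEAR_PS19 (adjusted p = 0.0116) and differed by 0.79 ± 0.26 in PS19 (adjusted p = 0.753), where only the looser rule of 2 Gad and 1 Sst UMIs gave a call (0.0037). The call of the average was lost without WT replicate 2 (0.058), PS19 replicate 2 (0.0591) or the third library set (0.241). That in CLEAR_PS19 was lost without CLEAR replicate 2 (0.0584), CLEAR_PS19 replicate 1 (0.128), CLEAR_PS19 replicate 2 (0.172) or nuclei with 3 or more glial or vascular UMIs (0.424). Mapt, the mouse tau gene, was 310, 341 and 324 CPM in WT, against 319, 338 and 282 in PS19, while CLEAR had 276, 268, 347 and 331 and CLEAR_PS19 had 297, 282, 351 and 221. The groups overlapped, and its averaged difference was -0.04 ± 0.11 (adjusted p = 1).

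**Figure D4:**
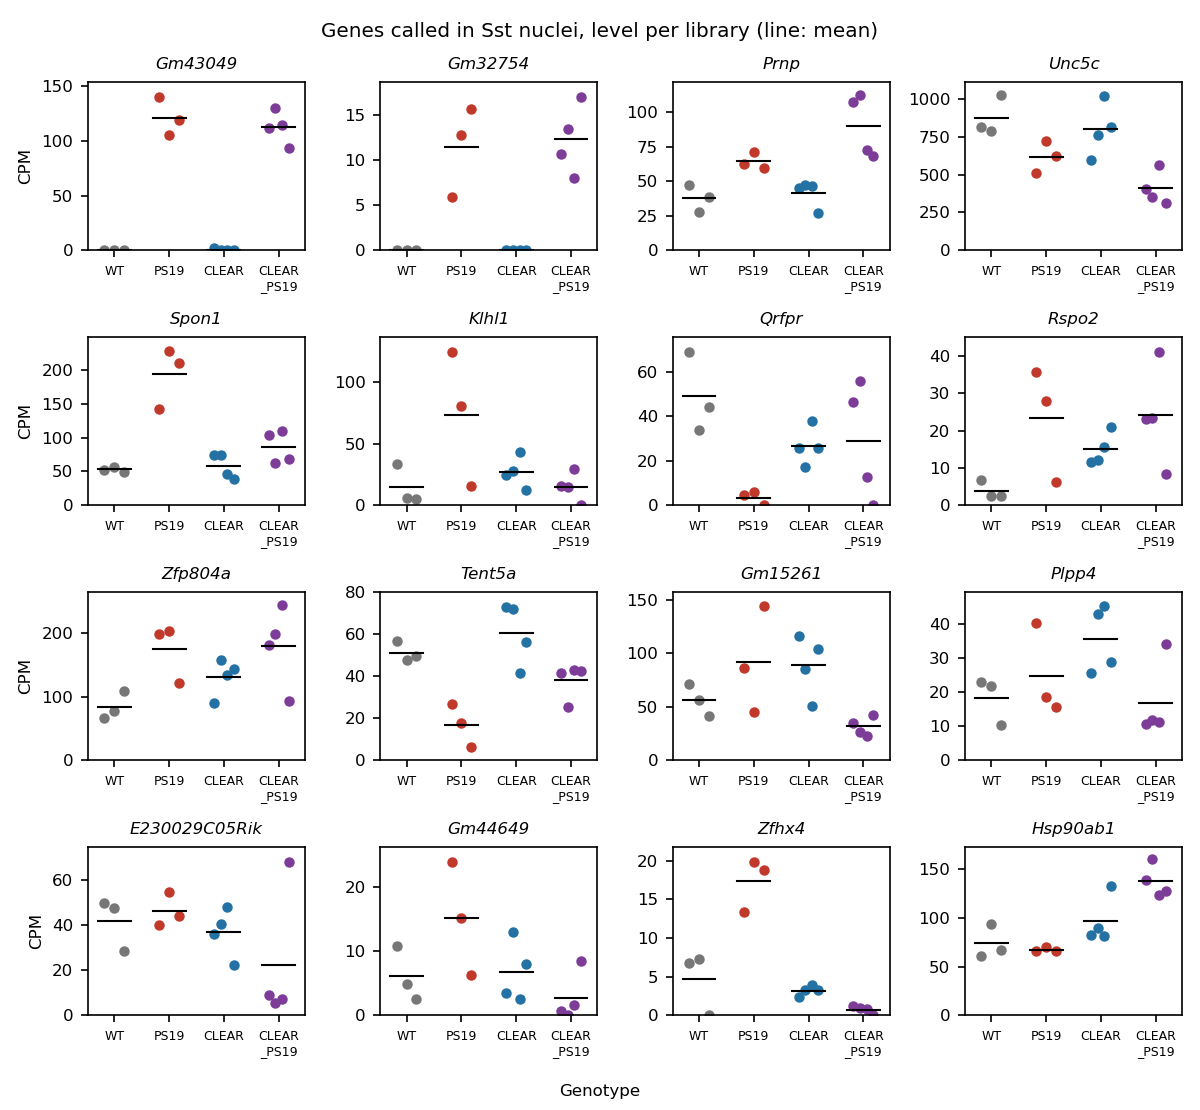
Level in CPM of the genes called in Sst nuclei, per library (points) and mean per genotype (line). Gm43049 and Gm32754 lie at or near 0 without the transgene, Spon1 reaches 143 to 228 in PS19 against 49.3 to 57.1 in WT, and replicate 4 of CLEAR_PS19 stands far from the other 3 in E230029C05Rik and Plpp4.

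Spon1 encodes F-spondin, a secreted matrix protein that guides axons and binds the amyloid precursor protein. Spon1 was 52.5, 57.1 and 49.3 CPM in WT, against 143, 228 and 210 in PS19, while CLEAR had 74.2, 74.4, 46.7 and 38.5 and CLEAR_PS19 had 104, 62.3, 110 and 68.1. PS19 lay above WT without overlap, and CLEAR_PS19 overlapped with CLEAR.

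Spon1 rose by 1.86 ± 0.25 in PS19 (adjusted p = 0.000487) and by 1.22 ± 0.17 on average (adjusted p = 0.000494). It differed by 0.58 ± 0.22 in CLEAR_PS19 against CLEAR (adjusted p = 0.987). The difference between these contrasts was -1.28 ± 0.34 (adjusted p = 0.485). No single library left out ended the call in PS19 or in the average (largest adjusted p 0.0175 and 0.00484). Including nuclei with as few as 2 Gad and 1 Sst UMIs did, and the differences were then 0.93 in PS19 (adjusted p = 0.285) and 0.57 on average (0.247). Leaving out nuclei with 3 or more glial or vascular UMIs also ended the call in PS19, with a difference of 2.24 (0.172). In other inhibitory nuclei Spon1 was 24.6, 25.3 and 37.1 CPM in WT and 28.4, 21.5 and 47.9 in PS19, overlapping. In excitatory nuclei it was 129, 155 and 182 CPM in WT and 127, 132 and 139 in PS19, also overlapping. The part of RNA from excitatory neurons in the levels of Sst nuclei was not tested.

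Unc5c, a netrin receptor that steers growing axons, was 817, 788 and 1027 CPM in WT, against 512, 721 and 624 in PS19, while CLEAR had 597, 765, 1019 and 817 and CLEAR_PS19 had 404, 355, 563 and 315. Each group with the transgene lay below its control without overlap. Unc5c fell by 0.7 ± 0.14 on average (adjusted p = 0.0399). That call was lost without any 1 of WT 1, 2 or 3, PS19 1, 2 or 3, CLEAR 2, 3 or 4 or CLEAR_PS19 1, 2 or 4, with adjusted p from 0.058 to 0.192. In other inhibitory nuclei Unc5c was 2135, 1836 and 1809 CPM in WT and 895, 943 and 899 in PS19, also without overlap. It overlaps 3 small genes in the annotation.

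Klhl1 and Qrfpr changed in PS19 against WT and were not called in CLEAR_PS19 against CLEAR. Klhl1, an actin-binding kelch protein of neurons, was 33.7, 6.07 and 5.19 CPM in WT, against 124, 80.4 and 15.7 in PS19, while CLEAR had 24.3, 27.5, 42.8 and 12.8 and CLEAR_PS19 had 15.4, 14.5, 29.8 and 0. PS19 replicate 3 lay within the range of WT. Klhl1 rose by 2.3 ± 0.42 in PS19 (adjusted p = 0.0299) and differed by -0.74 in CLEAR_PS19 against CLEAR (adjusted p = 1). The call in PS19 was lost without WT replicate 2 (0.361), WT replicate 3 (0.0646), PS19 replicate 1 (0.328) or PS19 replicate 2 (0.0564), by DESeq2 (0.0687), and with the looser rule, where the difference was 1.61 (0.0601).

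Qrfpr, the receptor of the peptide QRFP, was 68.7, 34 and 44.1 CPM in WT, against 4.47, 5.82 and 0 in PS19, while CLEAR had 25.5, 17, 37.7 and 25.7 and CLEAR_PS19 had 46.3, 56, 12.9 and 0. PS19 lay below WT without overlap, while CLEAR_PS19 spread over the whole range. Qrfpr fell by 3.52 ± 0.65 in PS19 (adjusted p = 0.0299) and differed by 0.44 in CLEAR_PS19 against CLEAR. The call was lost without WT replicate 1 (0.286), WT replicate 3 (0.092), PS19 replicate 1 (0.243), PS19 replicate 2 (0.187) or PS19 replicate 3 (0.0602). With the looser rule the difference of Qrfpr was -1.55 (0.57), and without nuclei with glial or vascular UMIs -1.69 (0.988), neither called.

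Rspo2, Zfp804a and Tent5a were called in the average of both contrasts, and Rspo2 also in PS19 against WT with the replicate block (2.64, adjusted p = 0.0329). Rspo2, a secreted enhancer of Wnt signalling, was 6.73, 2.43 and 2.59 CPM in WT, against 35.7, 27.9 and 6.27 in PS19, while CLEAR had 11.6, 12.1, 15.6 and 20.9 and CLEAR_PS19 had 23.2, 23.5, 41.1 and 8.51. It rose by 1.75 ± 0.33 (adjusted p = 0.0277), with 1 low library in each group with the transgene. Leaving out WT 2 or 3, PS19 1 or 2, CLEAR 1, 2 or 3 or CLEAR_PS19 3 ended the call, with adjusted p from 0.051 to 0.194. In excitatory nuclei Rspo2 was 64.8 to 104 CPM over all libraries, above every level in Sst nuclei.

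Zfp804a, a zinc finger gene, was 66, 77.7 and 109 CPM in WT, against 198, 204 and 122 in PS19, while CLEAR had 90.4, 158, 134 and 144 and CLEAR_PS19 had 182, 198, 244 and 93.7. PS19 lay above WT without overlap. It rose by 0.84 ± 0.16 (adjusted p = 0.0312), a call lost without WT 1 or 2, PS19 1 or 2, CLEAR 1 or 3 or CLEAR_PS19 2 or 3 (0.051 to 0.19). Tent5a, a poly(A) polymerase, was 56.6, 47.4 and 49.3 CPM in WT, against 26.8, 17.5 and 6.27 in PS19, while CLEAR had 73, 72, 41.5 and 56.2 and CLEAR_PS19 had 41.6, 25.3, 42.7 and 42.6. Again PS19 was apart from WT, while CLEAR replicate 3 lay among CLEAR_PS19. Tent5a fell by 1.11 ± 0.2 (adjusted p = 0.0213), a call lost without WT 1 or 3, PS19 2 or 3 or CLEAR 1 or 2 (0.0515 to 0.125).

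In CLEAR_PS19 against CLEAR, a further pair of genes fell. Gm15261, an antisense gene of Arhgap6, was 116, 84.9, 50.6 and 104 CPM in CLEAR and 35, 26.2, 22.6 and 42.6 in CLEAR_PS19, without overlap. It fell by 1.52 ± 0.27 (adjusted p = 0.0201), a call lost without CLEAR 1 or 2 or CLEAR_PS19 1, 2 or 3 (0.0556 to 0.173). In PS19 against WT it differed by 0.48, with 71.4, 55.9 and 41.5 CPM in WT and 86.3, 45.4 and 144 in PS19.

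Plpp4, a lipid phosphatase, was 25.5, 42.9, 45.4 and 28.9 CPM in CLEAR and 10.7, 11.7, 11.3 and 34.1 in CLEAR_PS19, where replicate 4 lay within CLEAR. It fell by 1.63 ± 0.32 (adjusted p = 0.0437), a call lost without WT 3, PS19 3, CLEAR 2, 3 or 4 or CLEAR_PS19 1, 2 or 3 (0.0529 to 0.32). With the looser rule the differences of Rspo2, Zfp804a, Gm15261 and Plpp4 were 1.26, 0.56, -1.13 and -1.02, and none of the 4 was called (adjusted p = 0.116, 0.28, 0.5 and 0.428).

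Other settings also ended calls of the tau contrasts. Without the third library set the averaged differences of Rspo2, Zfp804a, Tent5a and Unc5c were 1.68, 0.84, -0.8 and -0.71 (adjusted p = 0.224, 0.224, 0.704 and 0.166). In CLEAR_PS19 against CLEAR those of Gm15261, Plpp4 and Prnp were then -1.27, -1.56 and 0.92 (adjusted p = 1 for each), and Gm32754 had 0.991. Without nuclei with 3 or more glial or vascular UMIs, Gm15261 differed by -1.03 (0.771). The calls of Plpp4 (-1.66, 0.424), Rspo2 (1.71, 0.108) and Tent5a (-1.23, 0.0624) were also lost then. Without sex as a term the adjusted p was 0.299 for Klhl1, 0.0807 for Qrfpr, 0.0737 for Unc5c, 0.0659 for Zfp804a and 0.1 for Plpp4. From the libraries of the groups compared alone it was 0.134 for Klhl1 and 0.0748 for Plpp4, and without called doublets 0.102 for Plpp4.

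Activity-regulated genes, the immediate-early genes that neurons switch on after firing, were mostly lower with the transgene, and none was called in the fit without a replicate block. Of 26 listed genes 11 had enough counts to be tested. In the averaged contrast 10 of the 11 were lower, with a median log2 difference of -0.84 against -0.00393 over all genes. An unadjusted p under 0.05 was reached by 6, all lower, and by 4.34% of all genes. In PS19 against WT 9 of 11 were lower (median -0.37), and in CLEAR_PS19 against CLEAR all 11 (median -1.01). In the latter 7 were under 0.05, as were 4.28% of all genes. Without WT replicate 1 the averaged median was -0.4. Over 23 alternatives of the averaged contrast 0 to 2 of the tested genes were higher, and at most 1 was called. Leaving out nuclei with 3 or more glial or vascular UMIs left only 3 of these genes to test.

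Egr1, a zinc finger factor, was 44.4, 9.72 and 15.6 CPM in WT, against 13.4, 4.66 and 6.27 in PS19, while CLEAR had 24.3, 29.9, 42.8 and 36.9 and CLEAR_PS19 had 8.91, 20.8, 7.25 and 8.51. CLEAR_PS19 lay below CLEAR without overlap, while 1 PS19 library lay within WT. Its averaged difference was -1.53 ± 0.35 (adjusted p = 0.146). Nr4a1, an orphan nuclear receptor, was 68.7, 38.9 and 46.7 CPM in WT, against 38.7, 18.6 and 31.4 in PS19, while CLEAR had 60.3, 70.3, 44.1 and 48.2 and CLEAR_PS19 had 26.1, 37, 33.9 and 42.6. Both groups with the transgene lay below their controls, by narrow gaps, and the averaged difference was -0.84 ± 0.2 (adjusted p = 0.175).

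Npas4, an activity-dependent transcription factor of neurons, was 12.1, 9.72 and 15.6 CPM in WT, against 5.95, 9.32 and 15.7 in PS19, while CLEAR had 18.5, 21.8, 23.4 and 11.2 and CLEAR_PS19 had 7.13, 6.32, 2.42 and 0. It was apart only in CLEAR_PS19 against CLEAR, by -1.86 ± 0.4 (adjusted p = 0.0933), and was called there with the replicate number as a block (-1.98, adjusted p = 0.0473). In the sum of all inhibitory nuclei, which hold more counts, Egr1 was among 14 genes called of 15359 (0.0912%) and fell by 1.37. In bulk hippocampus at 9 months all 26 listed genes were tested, 25 were lower (median -0.7), and 6 were called, all lower, where 12.8% of all genes were called. At 4 months 18 of 26 were higher (median 0.05), and 0.0186% of all genes were called.

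**Figure D5:**
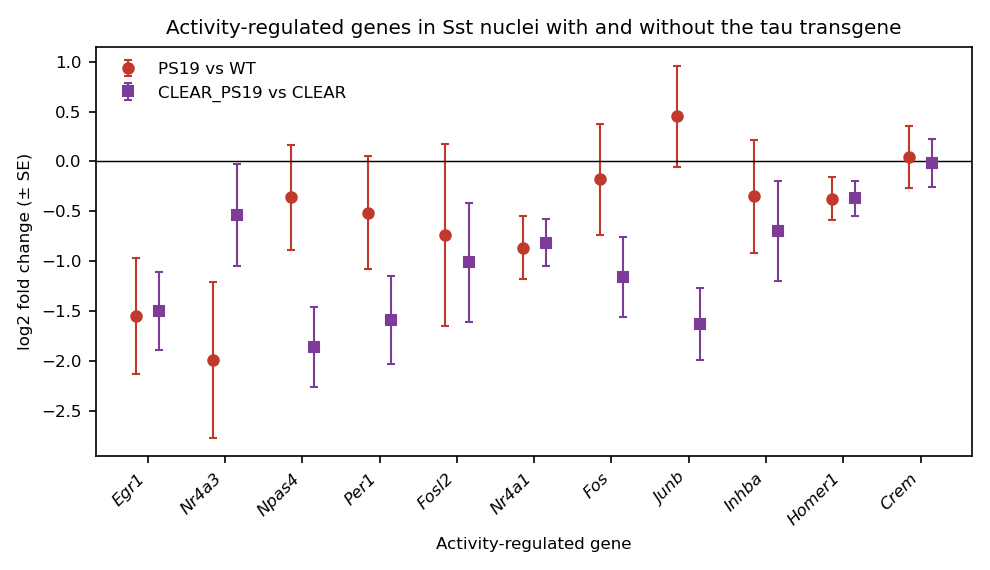
Log2 difference with its standard error for the 11 activity-regulated genes tested in Sst nuclei, in PS19 against WT and in CLEAR_PS19 against CLEAR. All 11 lie below 0 in CLEAR_PS19 against CLEAR, and 9 of 11 do in PS19 against WT.

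Markers of other cells were read in the same summed counts, and none was called. All 4 astrocyte markers with enough counts were lower in CLEAR_PS19 than in CLEAR (median -1.5), while 2 of 4 were higher in PS19 than in WT (median 0.12), and their average over both contrasts had a median of -0.63. The summed astrocyte level averaged 157 CPM in WT, against 277 in PS19, while CLEAR had 281 and CLEAR_PS19 had 119. Of 5 oligodendrocyte markers 3 were higher in PS19 (median 0.47) and 4 in CLEAR_PS19 (0.71), and of 4 microglial markers 3 in each (0.13 and 0.37). The part of these in the results above was not tested.

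With the CLEAR mutation no gene of Sst nuclei was called on average or in CLEAR against WT (0% of 9893 genes by edgeR, and 0 by DESeq2 in each). At an unadjusted p under 0.05 there were 944 and 570 genes. Both counts of called genes were higher with the replicate number as a block, and those counts are given below. The averaged count was 51 without CLEAR_PS19 replicate 3, 14 without CLEAR replicate 3, 3 without WT replicate 2 and 1 without PS19 replicate 1, CLEAR replicate 4 or CLEAR_PS19 replicate 4, and that of CLEAR against WT was 2 without WT replicate 2. Atp6v1h, the targeted gene, differed by -0.42 ± 0.12 on average (adjusted p = 0.23), by -0.52 ± 0.17 in CLEAR against WT (adjusted p = 0.713) and by -0.33 ± 0.18 in CLEAR_PS19 against PS19 (adjusted p = 0.656). With nuclei of 2 or more Gad and 1 or more Sst UMIs included it was called (adjusted p = 0.0319). In all inhibitory nuclei Atp6v1h was the only gene called of 15359 (0.00651%) and fell by 0.61 ± 0.06. Its CLEAR effect in Sst minus other inhibitory nuclei was 0.23 ± 0.12, with an unadjusted p of 0.0739 and an adjusted p of 1. Atp6v1h overlaps Rgs20 in the annotation.

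Besides Atp6v1h, no V-ATPase gene was called on average with this or the looser rule. Of 18 tested, Atp6v1h included, 14 were higher with the mutation on average (median log2 difference 0.16 against 0.0031 over all genes). Atp6v0c, of the membrane sector, differed by 0.73 ± 0.18 (adjusted p = 0.172) and Atp6v1d by 0.58 ± 0.16 (adjusted p = 0.218). Atp6v0c was 71.4, 60.7 and 62.2 CPM in WT, against 70, 72.2 and 37.6 in PS19, while CLEAR had 109, 72, 70.1 and 85.1 and CLEAR_PS19 had 181, 182, 89.5 and 68.1, highest in 3 of the 4 libraries of the third set. Of 45 lysosome and autophagy genes 31 were higher (median 0.08), led by Ctsl at 0.45 ± 0.2, with 0 called.

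Neuropeptide genes were mostly higher with the CLEAR mutation, again with no call in the fit over all libraries and without a block. Of 19 tested, 15 were higher on average (median 0.29). An unadjusted p under 0.05 was reached by 9, of which 8 were higher, and by 9.54% of all genes. Without CLEAR replicate 3 there were 3 calls among them. Without CLEAR_PS19 replicate 3 there were 4, among 51 genes called in that run. With the replicate number as a block there were 5. The count of all genes called without CLEAR replicate 3 stands above, and that with the block is given below. Npy was 55.2, 59.5 and 62.2 CPM in WT, against 62.5, 45.4 and 15.7 in PS19, while CLEAR had 124, 93, 59.7 and 54.6 and CLEAR_PS19 had 144, 154, 80.6 and 42.6. The highest 4 values were the 4 libraries of the third set. Its averaged difference was 0.89 ± 0.2 (adjusted p = 0.121).

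Pcsk1n, an inhibitor of the enzyme that cleaves prohormones, differed by 0.84 ± 0.2 (adjusted p = 0.154), and Cort, a peptide close to somatostatin, by 1.4 ± 0.39 (adjusted p = 0.218). Cort was 32.3, 8.5 and 33.7 CPM in WT, against 13.4, 6.99 and 28.2 in PS19, while CLEAR had 84.6, 78.4, 7.79 and 43.3 and CLEAR_PS19 had 44.6, 43.4, 25.8 and 51.1. The groups overlapped, and CLEAR replicate 3 was among the lowest. Sst itself, whose level in these nuclei is bounded by the rule, was 380, 418 and 345 CPM in WT, against 329, 349 and 251 in PS19, while CLEAR had 435, 523, 371 and 438 and CLEAR_PS19 had 675, 791, 364 and 324.

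Chaperone and stress genes were also higher with the mutation, with 13 of 14 on average (median 0.39) and 14 of 14 in CLEAR against WT (median 0.41), none of them called there. On average 1 was called without CLEAR replicate 3, CLEAR_PS19 replicate 3 or WT replicate 2, and at most 2 in any alternative. The counts of all genes called in the runs with a library left out stand above. Hspa5, the chaperone of the endoplasmic reticulum, differed by 0.75 ± 0.21 and Hsp90b1 by 0.65 ± 0.19 on average (adjusted p = 0.218 and 0.223). Hsp90ab1, a cytosolic chaperone, was 60.6, 93.5 and 67.4 CPM in WT, against 65.5, 69.9 and 65.9 in PS19, while CLEAR had 82.3, 89.8, 81.8 and 133 and CLEAR_PS19 had 139, 160, 123 and 128. All 4 CLEAR_PS19 libraries lay above all 3 PS19 libraries. Hsp90ab1 rose by 1.06 ± 0.2 in CLEAR_PS19 against PS19 (adjusted p = 0.03) and differed by 0.69 ± 0.14 on average (adjusted p = 0.12). The call was lost without PS19 1, 2 or 3 or CLEAR_PS19 1 or 2 (0.112 to 0.194), without called doublets (0.0557) and with the library set as a term (0.0774).

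CLEAR_PS19 against PS19 gave 6 called genes (0.0606%), 1 higher and 5 lower, with 819 at an unadjusted p under 0.05 and 6 by DESeq2. The higher gene was Hsp90ab1. The lower ones were Klhl1 and Spon1, which were high in PS19, and Zfhx4, E230029C05Rik and Gm44649. Klhl1 fell by 2.32 ± 0.35 (adjusted p = 0.0062) and Spon1 by 1.15 ± 0.22 (adjusted p = 0.0362), both with the values given above. The call of Klhl1 was lost without PS19 1 or CLEAR_PS19 1 or 2 (0.05 to 0.0966), and that of Spon1 without WT 3, PS19 2 or 3 or CLEAR_PS19 1, 2 or 4 (0.0575 to 0.378). This contrast shares the PS19 libraries with PS19 against WT.

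Zfhx4, a large zinc finger and homeobox factor, was 13.4, 19.8 and 18.8 CPM in PS19 and 1.19, 0.903, 0.806 and 0 in CLEAR_PS19, without overlap, while WT had 6.73, 7.29 and 0 and CLEAR 2.32, 3.23, 3.89 and 3.21. The 0 in CLEAR_PS19 is replicate 4, with 10 Sst nuclei. In all inhibitory nuclei Zfhx4 was 8.32, 7.29 and 11.1 CPM in PS19 and 1.66, 2.15, 2.05 and 18.5 in CLEAR_PS19, so that replicate 4 was the highest there. Zfhx4 fell by 4.05 ± 0.64 (adjusted p = 0.00621), a call lost without PS19 2 or CLEAR_PS19 1 or 2 (0.05 to 0.194). Its levels in CLEAR_PS19 were near 1 CPM or lower, in sums of 108889 to 1661987 UMIs per library. The size of the fall therefore rests on very few UMIs. E230029C05Rik was 40.2, 54.7 and 43.9 CPM in PS19 and 8.91, 5.42, 7.25 and 68.1 in CLEAR_PS19. Gm44649, antisense to Iqgap1, was 23.8, 15.1 and 6.27 CPM in PS19 and 0.594, 0, 1.61 and 8.51 in CLEAR_PS19. Replicate 4 of CLEAR_PS19 lay above all 3 PS19 libraries in E230029C05Rik and within their range in Gm44649. The levels of Gm44649 in CLEAR_PS19 also rest on very few UMIs, including that of replicate 4, which held 108889 UMIs in all.

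E230029C05Rik fell by 2.33 ± 0.42 (adjusted p = 0.0294) and Gm44649 by 3.96 ± 0.76 (adjusted p = 0.0364). The first call was lost without PS19 1, 2 or 3 or CLEAR_PS19 1 or 2 (0.0507 to 0.295), and the second without WT 3, PS19 1, 2 or 3 or CLEAR_PS19 1 or 2 (0.0507 to 0.295). Without the third library set none of Klhl1, Spon1, Zfhx4, E230029C05Rik, Gm44649 and Hsp90ab1 was called (adjusted p from 0.494 to 1), with differences of -1.77, -0.93, -4.31, -1.73, -2.75 and 0.89. Nor was any of the 6 called with the looser rule (0.0894 to 0.511), where they were -1.32, -0.46, -1.69, -1.86, -2.61 and 0.67, or with the library set as a term (0.0564 to 0.0943). Without sex as a term Zfhx4 alone of the 6 was called (0.1 to 0.137 for the others). Without nuclei with glial or vascular UMIs no gene was called, and Klhl1, Spon1, E230029C05Rik and Hsp90ab1 differed by -1.73, -0.89, -1.7 and 0.74 (adjusted p = 0.222, 0.808, 0.801 and 0.751). Without called doublets E230029C05Rik, Gm44649 and Hsp90ab1 lost their calls (0.0555 to 0.0557), and the rest of the 6 were not all called either. From the libraries of PS19 and CLEAR_PS19 alone E230029C05Rik, Spon1 and Hsp90ab1 did (0.0522 to 0.0975), and by DESeq2 E230029C05Rik did (0.0996).

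The marker lists of dentate granule and pyramidal neurons, given above, and mitochondrial RNA moved with this contrast. RNA of the mitochondrial genome was 0.00548% to 0.0062% of the UMIs of Sst nuclei in PS19 and 0.008265% to 0.01205% in CLEAR_PS19, without overlap, while CLEAR had 0.007892% to 0.009222% and WT 0.003706% to 0.01244%. Of 12 listed mitochondrial genes 3 were tested, and all 3 were higher in CLEAR_PS19 than in PS19 (median 1.12), with 0 called. An unadjusted p under 0.05 was reached by 2 of them and by 8.28% of all genes. The part of the marker lists or of mitochondrial RNA in the calls was not tested. E230029C05Rik overlaps Eed in the annotation.

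No gene was called for a tau effect that depended on the CLEAR background (0% of 9893 genes by edgeR and 0 by DESeq2, 440 at an unadjusted p under 0.05). Klhl1 and Qrfpr came nearest among the genes named above, with -3.04 ± 0.56 and 3.95 ± 0.76 (adjusted p = 0.111 for both). Nor was any gene called for a tau effect that differed between Sst and other inhibitory nuclei of the same libraries (0% of 11346 by edgeR, 0 by DESeq2, 475 unadjusted). The same test for the CLEAR effect gave 0%, 0 and 562. Spon1 differed by 1.16 ± 0.24 between the classes (unadjusted p = 6.74e-05, adjusted p = 0.764), so that its change is not shown to be particular to Sst nuclei. Prnp differed by -0.2 between them.

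In the other fixed lists no member apart from Prnp was called in either averaged contrast. With the transgene 8 of 19 interneuron identity genes were higher (median -0.03), 12 of 23 genes of GABA synthesis, transport and receptors (0.02), 9 of 25 glutamate receptor genes (-0.03), 9 of 23 release genes (-0.02), 14 of 27 voltage-gated channels (0.02) and 13 of 23 axon growth genes (0.01). Of 27 tau regulators 8 were higher (-0.05), and Prnp was the 1 called. Of 30 interferon and antigen presentation genes 3 had enough counts to be tested, 1 of them higher with the transgene (-0.05) and 1 with the CLEAR mutation (-0.38). The 3 mitochondrial genes were 1 higher with the transgene (-0.2) and 3 with the CLEAR mutation (0.66), where mt-Co1 differed by 0.74 ± 0.28 (adjusted p = 0.405).

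Among Sst subtype genes 4 of 14 were higher with the transgene (median -0.15). Crhbp, the binding protein of corticotropin-releasing hormone, was 91.6, 89.9 and 72.6 CPM in WT, against 56.6, 39.6 and 47 in PS19, while CLEAR had 187, 147, 90.9 and 106 and CLEAR_PS19 had 95.6, 77.7, 42.7 and 179. PS19 lay below WT without overlap, and replicate 4 of CLEAR_PS19 reached into CLEAR. The averaged difference was -0.8 ± 0.22 (adjusted p = 0.434). Pcsk1, the prohormone convertase, differed by -0.63 ± 0.16 (adjusted p = 0.275). With the CLEAR mutation 8 of 25 glutamate receptor genes were higher (median -0.07), 9 of 27 voltage-gated channels (-0.07) and 9 of 23 GABA genes (-0.08). The largest of these differences by p were Grik5 at -0.47 ± 0.14 and Cacna1g at -0.57 ± 0.18 (adjusted p = 0.25 and 0.281).

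Sst was also read where nuclei had not been chosen by it. In all inhibitory nuclei it was 57.6, 74.6 and 46.8 CPM in WT, against 41.5, 69.4 and 31.7 in PS19, while CLEAR had 96.1, 141, 62.8 and 69.6 and CLEAR_PS19 had 193, 158, 78.4 and 39. The 4 highest values were again the third library set, and all 4 groups overlapped. The tau difference was -0.04 (adjusted p = 1) and the CLEAR difference 0.89 ± 0.23 (adjusted p = 0.291). Npy in the same nuclei differed by 0.78 with the CLEAR mutation (adjusted p = 0.291).

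In bulk hippocampus Sst was 103, 106, 133, 145 and 104 CPM in WT and 117, 133, 112 and 147 in PS19 at 9 months. At 4 months it ran from 111 to 142 CPM in 6 WT libraries (median 125) and from 96.5 to 132 in 6 PS19 libraries (median 122). The groups overlapped at both ages. The differences were 0.11 ± 0.11 (adjusted p = 0.581) and -0.08 ± 0.09 (adjusted p = 1). Npy differed by 0.00077 at 9 months (adjusted p = 0.999), and Nos1 fell by 0.28 (adjusted p = 0.0284). In bulk RNA fewer cells of a type and less RNA per cell cannot be told apart.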

How the data were processed

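The nuclei tables hold raw UMI counts per gene and barcode, deposited by the authors; per the file headers Cell Ranger 5.0.1 made them, on mm10, per the submitters' processing notes. The bulk tables hold raw read counts per gene, also as deposited, and 1 of them names featureCounts 2.0.0, unstranded and paired, per its file header. The members and gene lists were chosen with earlier results of these data known.

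Counts of the Sst nuclei were summed per library. Genes were kept by edgeR's filterByExpr, scaled by TMM and tested with edgeR 4.0.16 (quasi-likelihood, R 4.3.3) over all 14 libraries with genotype and sex as terms, and p-values were Benjamini-Hochberg adjusted over all genes tested. Bulk libraries were fitted together in 4 groups, without sex. Levels (CPM) of single genes are summed counts over the library's TMM-scaled total of the same nuclei. Summed levels of marker lists are over the unscaled total. In both, one deep nucleus weighs more than a shallow one. Shares were compared with exact permutation tests over libraries in Python 3.11.15 with scipy 1.17.1, and doublets were called with Scrublet in scanpy 1.11.5. The scripts were tested on simulated data.

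Named genes were every gene called in a contrast of Sst nuclei, members of the lists that were called or had the smallest p, a set of Sst interneuron markers, and the 10 with the smallest p in each direction between the classes, of which 1 is not reported here. Of the lists, 1 gene was not analysed here, nor was replicate 2 of PS19 at 9 months in bulk. Alternatives were DESeq2 1.42.0, other thresholds and filters, blocks by library set or replicate number, and each library left out. Same-numbered libraries deviated together in CLEAR and CLEAR_PS19 (correlations 0.191, 0.195, 0.147 and 0.164), from which the pairing was taken. They also did in WT and PS19 over the deeper excitatory nuclei (0.302, 0.279 and 0.507), if not in every pair over Sst nuclei (0.0828, 0.121 and 0.174). Libraries with different numbers were not compared in this way. The same-numbered libraries of these pairs also shared a library set and a sex, so the correlations cannot show pairing by number. Over Sst nuclei WT and CLEAR gave 0.136, 0.0109 and -0.0831, and PS19 and CLEAR_PS19 gave 0.0468, 0.0862 and -0.0928. Over excitatory nuclei they gave 0.161, 0.108 and -0.276, and 0.168, 0.106 and -0.272. The negative values were those of replicate 3, a female in WT and PS19 and a male in both CLEAR groups. These values were not taken as grounds to pair WT with CLEAR or PS19 with CLEAR_PS19. The replicate block nevertheless used the same numbers across all genotypes, so it also grouped such libraries. In it replicate 3 joined the females of WT and PS19 with males of both CLEAR groups. All counts and calls given with the replicate block, those of the tau contrasts included, rest on that grouping.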

Additional observations from a re-analysis of the deposited data

Results flagged for a closer look

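In 78 groups of 4 or more libraries checked, 10 had 1 library far from the others by Dixon's gap ratio. This is the gap to the nearest library over the range of the group, and chance alone gives about 1 in 20. Of the 7 in Sst nuclei, 4 were the female library of its group. In CLEAR replicate 4, Prnp was 27.3 CPM against 45.2 to 46.9 (ratio 0.913) and Hsp90ab1 133 against 81.8 to 89.8 (ratio 0.844). In CLEAR_PS19 replicate 4, Plpp4 was 34.1 against 10.7 to 11.7 (ratio 0.957) and E230029C05Rik 68.1 against 5.42 to 8.91 (ratio 0.944). That library held 10 Sst nuclei with 108889 UMIs in all, so these levels rest on few UMIs, and counting error was not taken into the ratio. In CLEAR_PS19 replicate 2, Tent5a was 25.3 against 41.6 to 42.7 (ratio 0.937) and Egr1 20.8 against 7.25 to 8.91 (ratio 0.877). Gm43049 was 2.32 CPM in CLEAR replicate 1, from 2 counts, and 0 in the other 3. The ratio is then 1 whatever the value, so nothing is read from this flag.

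In bulk tissue Sst was 96.5 CPM in PS19 replicate 2 at 4 months against 120 to 132 (ratio 0.662). Npy was 44.6 in PS19 replicate 5 at 9 months against 25.1 to 27.5 (ratio 0.877) and 54.3 in WT replicate 3 against 20.6 to 29.7 (ratio 0.73).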

How the results depend on the processing

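Counts of called genes in Sst nuclei moved with the filter on low counts and with the blocks. PS19 against WT (4 called) gave 53 without the filter, 2 without sex, 9 with the replicate block, 8 with the library set as a block, 7 from the 2 groups alone and 2 to 6 with a library left out. CLEAR_PS19 against CLEAR (5) gave 1 without nuclei with glial UMIs, 1 without the third library set, 66 without the filter, 8 and 11 with the replicate and set blocks, and 1 to 9 with a library left out. CLEAR against WT (0) gave 2 without the third set, 30 without the filter, 16 with the replicate block and 0 to 2. CLEAR_PS19 against PS19 (6) gave 2 with the looser rule, 2 without doublets, 0 without glial UMIs, 2 without the third set, 83 without the filter, 1 without sex, 106 and 3 with the replicate and set blocks, and 0 to 26. The averaged tau effect (8) gave 4 without the third set, 56 without the filter and 3 to 10. The averaged CLEAR effect (0) gave 1 with the looser rule, 99 without the filter, 249 with the replicate block (5 of them neuropeptide genes) and 0 to 51, the most without CLEAR_PS19 replicate 3. The interaction (0) gave 1 without the third set, 44 without the filter, 3 and 5 with the replicate and set blocks, and 0 to 4. Sst minus other inhibitory nuclei (0) gave 13 (looser rule), 31 (no filter) and 0 to 1 for tau, and 43 (no filter) and 0 to 1 for CLEAR. Sst against other nuclei (3014) gave 1867 without glial UMIs and 2744 to 3087. In all inhibitory nuclei tau (14) gave 6 without the third set, 22 by DESeq2, 142 without the filter, 28 with the replicate block and 5 to 15, and CLEAR (1) gave 2 by DESeq2, 369 without the filter, 3205 with the replicate block and 1 to 7. Bulk at 9 months (2060) gave 1185 to 2110, and bulk at 4 months (3) gave 11 by DESeq2, 5 with the replicate block and 3 to 4. With a library left out, the share differences ran from -2.71 to 0.647 and 4.14 to 7.49 points of inhibitory nuclei for tau and CLEAR, and from -0.0862 to 0.0724 and 0.191 to 0.35 points of all nuclei. The cause was not tested.

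A rule of 8 Gad and 10 Sst UMIs left 0 nuclei in PS19 replicate 3 and CLEAR_PS19 replicate 4, so genes were not fitted under it. Precision was lowest in CLEAR_PS19 replicate 4, with 10 Sst nuclei.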

Other observations

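Of the 16 genes called in Sst nuclei, 5 lay on chromosome 3 (Gm32754, Gm43049, Qrfpr, Unc5c and Zfhx4), which holds 4.87% of the genes tested, and 4 on chromosome 7 (E230029C05Rik, Gm44649, Plpp4 and Spon1), which holds 6.74%. Gm43049 and Gm32754 lie 144 kb apart, and Unc5c starts 548 kb beyond Gm32754.

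The low level of E230029C05Rik in CLEAR_PS19 replicates 1 to 3 was seen in other classes too. In excitatory nuclei it was 8.51, 8.26 and 8.62 CPM in these and 28.7 in replicate 4, and in other inhibitory nuclei 9.25, 8.91 and 10.8 against 38.5. PS19 gave 37.5, 42.6 and 38 in excitatory nuclei. Gm44649 was 0.948, 1.14 and 1.1 CPM in excitatory nuclei of replicates 1 to 3 and 8.8 in replicate 4.

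Unc5c in excitatory nuclei was 1168, 1119 and 732 CPM in WT and 963, 931 and 776 in PS19, overlapping, where it lay apart in both classes of inhibitory nuclei. Slit2, an axon guidance ligand, was 45.8, 57.1 and 28.5 CPM in Sst nuclei of WT, against 86.3, 99 and 47 in PS19, while CLEAR had 67.2, 65.5, 101 and 99.5 and CLEAR_PS19 had 128, 172, 188 and 0. Its tau and CLEAR differences were 0.78 ± 0.23 and 0.79 ± 0.22 (adjusted p = 0.564 and 0.218).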
